A study of Mus musculus with 12 samples.

Results

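The integrated stress response and tRNA synthetase genes are a named set of 35 mouse genes, made up of ATF4 and its partner transcription factors, the feedback and stress effectors they switch on, enzymes of amino acid and one-carbon synthesis, and cytosolic aminoacyl-tRNA synthetases with the tRNA exporter Xpot. They were taken by gene symbol from an expression microarray table, 1 probe set per gene, and 32 of the 35 were measured alone among 22180 genes. Pycr1 and Mars had no probe set, and Aars lay only on a probe set annotated with several genes, so the levels of these 3 were not analysed here. The members were named for their function, but with earlier results of these data known. Their counts beside the shares of all genes therefore describe the set and are not an independent test.

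In this pathway, kinases that sense amino acid shortage, unfolded protein in the endoplasmic reticulum, double-stranded RNA or haem shortage phosphorylate the translation factor eIF2 on its alpha subunit. Most translation then slows, while the mRNA of the transcription factor ATF4 is translated more. ATF4 binds, with C/EBP partners, to response elements at genes for amino acid synthesis, amino acid transport and tRNA charging, and under stronger or longer stress the CHOP factor (gene Ddit3) and the Trib3, Chac1 and GADD34 (Ppp1r15a) genes are switched on. Because ATF4 is set mainly at translation, its mRNA level alone does not show its activity.

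The study compared RNA of 6 groups with 2 arrays each. EpiSC, epiblast stem cells derived from E5.75 embryos, were kept with FGF2 (12 ng/ml), Activin A (20 ng/ml) and 20% KSR, a serum replacement. rsEpiSC, called intrinsic state epiblast stem cells in other label fields, were derived at E6.5 or at E5.75 and kept with the Wnt inhibitor IWR1 (2.5 µM) and a factor at 20 ng/ml whose name the labels leave out. ESC, derived at E3.5, were kept with CHIR99021 (3 µM), PD0325901 (1 µM) and LIF. All lines grew in N2B27 medium on mouse embryonic fibroblast feeders (MEFs). The tissue groups were epiblast of E6.5 and of E5.75. The strain field names an OCT4-deltaPE-GFP reporter crossed to C57BL/6, and its last digit, like the upper passage number, counts up in part of the samples, so neither was used. The labels do not state that 2 arrays of a group came from separate cultures, lines or litters; the p-values below therefore reflect array-to-array spread, which may be technical. Replicate arrays correlated at 0.943 (epiblast E5.75) to 0.988 (rsEpiSC E6.5), and the interquartile range of log2 signal was 3.07 to 3.31 on cultured arrays against 2.23 to 2.68 on tissue arrays. The naive marker Klf4 averaged 9.47 in ESC and was between 4.66 and 5.26 in the other groups, as group means. Summed signal of 16 measured fibroblast markers, in log2, was 10.54 and 11.16 in EpiSC, 9.34 and 9.54 in rsEpiSC E6.5, 10.15 and 10.31 in rsEpiSC E5.75, 8.61 and 8.76 in ESC, 8.78 and 8.68 in epiblast E6.5, and 8.77 and 8.83 in epiblast E5.75. This sum, taken before the log, follows the markers of highest signal, in EpiSC Tagln (9.19), Acta2 (8.92) and Col1a2 (7.66) as group means. Of the 16 markers, 12 were higher in EpiSC than in epiblast E5.75, as were 8823 of all 22180 genes. In these bulk samples fewer cells of a type and less RNA per cell cannot be told apart.

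Promoter sequence was examined first, because ATF4 acts through a short DNA element. RefSeq promoters of GRCm38.p6, each running from 250 bases before to 50 bases after a gene start, were found for 30 of the 35 members (33 promoters). The letters of the ATF4 response element core, TGATGNAA on either strand, were present in 13 of the 33 member promoters (39.4%), against 1304 of all 32851 promoters (3.97%). The 13 include Aars and Pycr1, whose levels were not analysed. They were in none of the 9 promoters of other cytosolic synthetases and scaffold proteins and in none of the 15 promoters of mitochondrial synthetases, but in 6 of 24 promoters of other ATF4 targets (25%) and in 1 of 12 of the eIF2 kinase, eIF2 and eIF2B list (8.33%). The ER stress element, CCAAT and CCACG with 9 bases between them, was in 39 of all 32851 promoters (0.119%). It was in 0 of the 33 member promoters, which is near that share. In an ATF6 and XBP1 unfolded protein response list it was in 9 of the 19 promoters (47.4%). The members were named as ATF4-linked genes, so the share is a description of the set; a match is not a shown binding site. Below are the 250 bases upstream of Chac1 (chr2:119350992-119351241, plus strand) and Asns (chr6:7693210-7693459, minus strand), each in the direction of its gene with the element in capitals, shown because these genes differ in how they split the groups. In Chac1 the first base of the element lies 193 bases before the start, and in Asns 23 bases before it.
Chac1: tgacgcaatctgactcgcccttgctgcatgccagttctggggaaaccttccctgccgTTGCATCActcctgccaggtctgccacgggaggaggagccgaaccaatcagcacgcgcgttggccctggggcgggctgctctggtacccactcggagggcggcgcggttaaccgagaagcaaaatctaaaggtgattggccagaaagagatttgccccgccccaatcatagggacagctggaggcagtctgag
Asns: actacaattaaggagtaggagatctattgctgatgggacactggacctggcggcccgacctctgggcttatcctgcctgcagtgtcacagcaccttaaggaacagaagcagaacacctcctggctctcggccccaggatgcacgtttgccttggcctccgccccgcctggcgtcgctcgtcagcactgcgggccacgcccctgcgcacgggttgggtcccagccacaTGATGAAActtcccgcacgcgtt

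For 7 more members 30 bases around the element are shown, again in the direction of the gene with the element in capitals. Trib3 (chr2:152344028-152344057, minus), Nupr1 (chr7:126625562-126625591, minus), Herpud1 (chr8:94386306-94386335, plus), Gars (chr6:55037960-55037989, plus) and Yars (chr4:129189895-129189924, plus) were higher in EpiSC than in epiblast E5.75, and Iars (chr13:49682126-49682155, plus) and Tars (chr15:11399655-11399684, minus) carry the element but did not pass that test. In all of these 7 but Yars it reads on the strand opposite to the gene. Atf3 and Vldlr, whose sequences are not shown, also carry the element and were also higher. Ddit3, Ddit4 and Shmt2 were higher without a match. The genes of this paragraph were picked with their values known.
Trib3: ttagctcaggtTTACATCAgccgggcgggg
Nupr1: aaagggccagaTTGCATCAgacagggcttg
Herpud1: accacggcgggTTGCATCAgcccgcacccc
Gars: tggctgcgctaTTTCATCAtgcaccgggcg
Yars: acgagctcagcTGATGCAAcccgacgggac
Iars: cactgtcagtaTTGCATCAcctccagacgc
Tars: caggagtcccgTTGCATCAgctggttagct

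Cultured lines and tissue were set against each other across all arrays first. On the deposited log2 scale, 14 of the 32 measured members had every one of the 8 cultured arrays above every one of the 4 tissue arrays, where 7.38% of all 22180 genes did (11.4% of the 14259 genes with a mean log2 signal of at least 4, a level all measured members reached). None had every cultured array below. The 14 were Atf5, Ddit3, Ddit4, Herpud1, Asns, Psph, Shmt2, Aldh18a1, Cars, Gars, Nars, Sars, Wars and Yars. As a deviation from each gene's mean over the 12 arrays, the members' median was 0.65 and 0.58 on the EpiSC arrays, 0.63 and 0.23 in rsEpiSC E6.5, -0.17 and 0.12 in rsEpiSC E5.75, 0.50 and 0.19 in ESC, -0.58 and -0.69 in epiblast E6.5, and -0.62 and -0.74 in epiblast E5.75. The same median over all genes lay between -0.08 and 0.08 on every array.

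**Figure D1:**
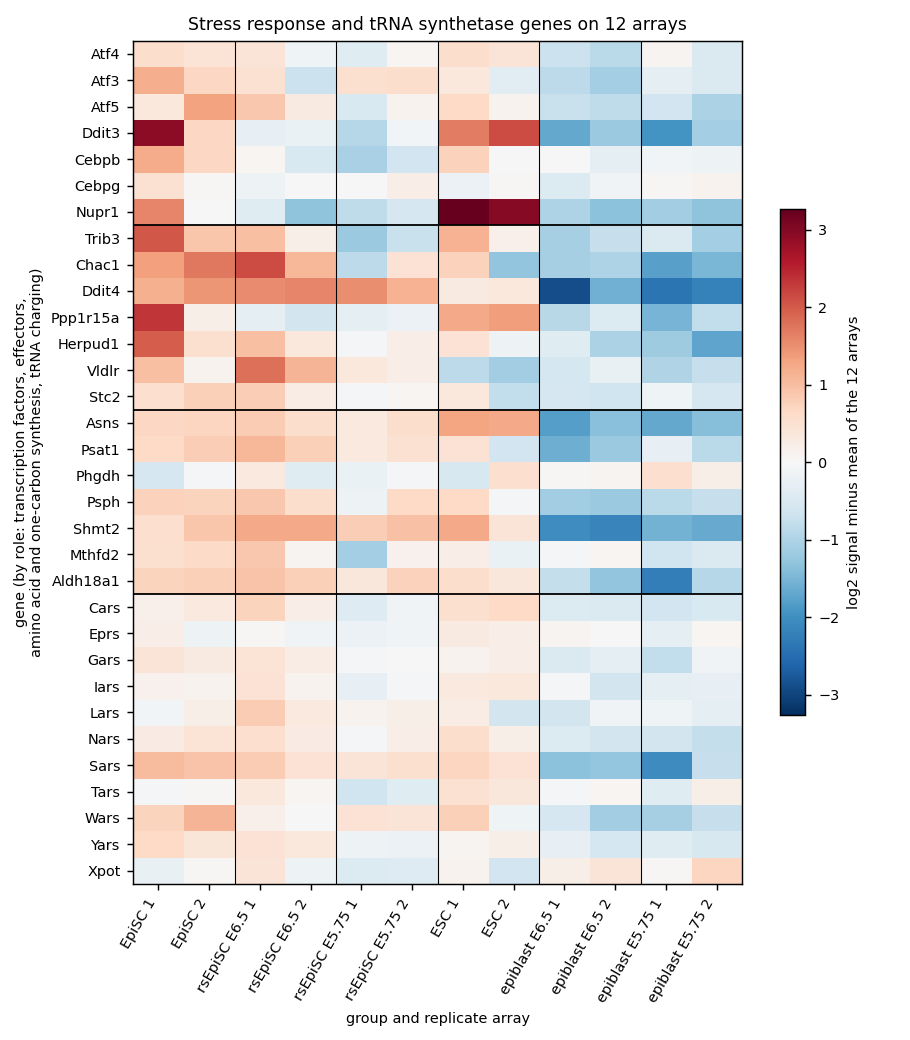
Log2 signal of the 32 measured members (rows, by role) on the 12 arrays (columns, 2 per group), minus each gene's mean over the arrays; red is above and blue below that mean. Asns, Ddit4, Shmt2 and Sars are red on all 8 cultured arrays and blue on all 4 tissue arrays, while Ddit3 and Nupr1 are darkest in EpiSC replicate 1 and in ESC.

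The first comparison set EpiSC against rsEpiSC derived at the same stage, E5.75. Trib3, Ddit3 and Cebpb rose in EpiSC. They were 3 of 32 members, and none fell. Of all genes 2.31% rose (3.35% of those with a mean log2 signal of at least 4), and 3.87% were called in either direction. A call is a limma adjusted p under 0.05 over all genes. Asns, Shmt2, Ddit4 and all synthetases did not pass. The members' median difference was 0.48 (all genes -0.02), with 28 of 32 above 0 and 12 at an unadjusted p under 0.05. Of all 22180 genes, 10600 were above 0 and 3036 had an unadjusted p under 0.05.

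Trib3 encodes a pseudokinase that binds ATF4 and dampens its action. Its log2 signal was 7.69 and 6.58 in EpiSC, 6.64 and 5.86 in rsEpiSC E6.5, 4.46 and 4.93 in rsEpiSC E5.75, 6.80 and 5.83 in ESC, 4.58 and 4.92 in epiblast E6.5, and 5.19 and 4.55 in epiblast E5.75. Both EpiSC arrays lay above both rsEpiSC E5.75 arrays, which overlapped the tissue arrays. The difference was 2.44 ± 0.45 (SE; limma adjusted p = 0.0089).

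Ddit3 encodes CHOP, a bZIP factor that favours cell death under lasting stress. It was at 10.03 and 7.79 in EpiSC, 6.84 and 6.90 in rsEpiSC E6.5, 6.19 and 7.01 in rsEpiSC E5.75, 8.79 and 9.25 in ESC, 5.45 and 5.91 in epiblast E6.5, and 5.15 and 6.00 in epiblast E5.75. EpiSC and ESC were the high groups, but the 2 EpiSC arrays stood 2.24 log2 units apart. EpiSC minus rsEpiSC E5.75 gave 2.32 ± 0.58 (SE; limma adjusted p = 0.0471).

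Cebpb encodes C/EBP beta, a bZIP factor that pairs with ATF4 and CHOP. It had 7.47 and 6.91 in EpiSC, 6.31 and 5.76 in rsEpiSC E6.5, 5.19 and 5.61 in rsEpiSC E5.75, 7.00 and 6.25 in ESC, 6.25 and 5.96 in epiblast E6.5, and 6.16 and 6.09 in epiblast E5.75. Unlike Ddit3, its rsEpiSC E5.75 arrays lay below those of the tissue. The difference between EpiSC and rsEpiSC E5.75 was 1.79 ± 0.34 (SE; limma adjusted p = 0.0106).

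These 3 calls depended on single arrays. Calls over all genes moved as well, from 318 to 1567 over the 11 alternatives against 858 in the main fit. Whether the members moved more than all genes was not tested. Without EpiSC replicate 1, and likewise without rsEpiSC E5.75 replicate 1, 0 of 32 members passed; without EpiSC replicate 2, 6 did (Cebpb, Ddit3, Herpud1, Nupr1, Ppp1r15a and Trib3). Leaving out EpiSC replicate 1 moved Ddit3 to 1.19 (adjusted p = 0.343), Trib3 to 1.89 (adjusted p = 0.102) and Cebpb to 1.51 (adjusted p = 0.111). The fibroblast marker sum was 10.54 in EpiSC replicate 1 and 11.16 in EpiSC replicate 2, and single markers ran both ways. Col1a2 was at 6.29 and 9.02 and Mmp2 at 7.70 and 6.77, values picked after they were seen. Between EpiSC and rsEpiSC E5.75, 2 of the 16 fibroblast markers rose, Tagln and S100a4, and 0 fell. In the list of 14 trophoblast and extraembryonic ectoderm markers 3 rose and 1 fell, with the keratin genes Krt18 (3.20 ± 0.28) and Krt8 (2.73 ± 0.52) highest, and the list's summed log2 signal was 11.73 and 12.19 in EpiSC against 10.00 and 10.16 in rsEpiSC E5.75. Of the 14 differences, 9 were above 0, as were 10600 of the 22180 over all genes. Among the factor genes of the list, Cdx2 averaged 3.65 in EpiSC and 3.82 in rsEpiSC E5.75, and Eomes 5.35 and 4.28. Both genes were picked after their values were seen. Of the pluripotency genes, Nanog was higher (3.47 ± 0.35) and Sox2 lower (-3.26 ± 0.24) in EpiSC than in rsEpiSC E5.75. The part of these markers in the result was not tested.

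**Figure D2:**
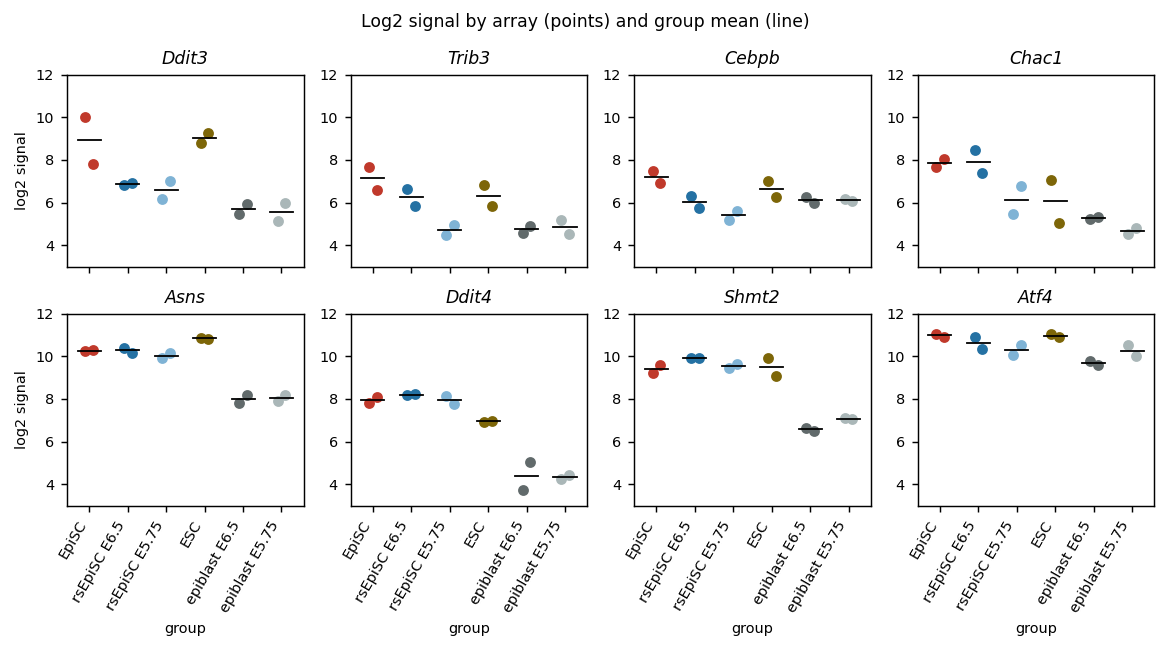
Log2 signal of 8 members in the 6 groups; each point is 1 array and each line a group mean (n = 2). Trib3 and Cebpb are lowest in rsEpiSC E5.75 among the cultured groups, while Asns, Ddit4 and Shmt2 separate all cultured groups from both tissues.

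Several other members of the transcription factor and effector groups leaned the same way without passing. Chac1, which encodes an enzyme that degrades glutathione, had log2 signals of 7.66 and 8.05 in EpiSC, 8.44 and 7.39 in rsEpiSC E6.5, 5.46 and 6.78 in rsEpiSC E5.75, 7.07 and 5.03 in ESC, 5.24 and 5.32 in epiblast E6.5, and 4.55 and 4.83 in epiblast E5.75. EpiSC and rsEpiSC E5.75 did not overlap, yet with a difference of 1.73 ± 0.59 the adjusted p was 0.169 in limma. Atf4 itself was at 11.04 and 10.92 in EpiSC, 10.90 and 10.32 in rsEpiSC E6.5, 10.07 and 10.54 in rsEpiSC E5.75, 11.05 and 10.90 in ESC, 9.76 and 9.59 in epiblast E6.5, and 10.55 and 10.00 in epiblast E5.75. Its mRNA was highest in EpiSC and ESC, where the arrays overlapped, and the difference from rsEpiSC E5.75 was 0.67 ± 0.24 (limma adjusted p = 0.19).

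Nupr1 and Ppp1r15a are given by array because of what leaving out an array showed, a choice made after their values were seen. Ppp1r15a encodes GADD34, which brings a phosphatase to eIF2 and so closes the feedback loop. It was at 8.84 and 6.68 in EpiSC, 6.19 and 5.89 in rsEpiSC E6.5, 6.17 and 6.30 in rsEpiSC E5.75, 7.73 and 7.86 in ESC, 5.60 and 6.05 in epiblast E6.5, and 4.97 and 5.69 in epiblast E5.75. Nupr1, a small stress-induced nuclear protein, was at 7.02 and 5.43 in EpiSC, 5.03 and 4.10 in rsEpiSC E6.5, 4.59 and 4.88 in rsEpiSC E5.75, 8.68 and 8.39 in ESC, 4.42 and 4.08 in epiblast E6.5, and 4.28 and 4.10 in epiblast E5.75. In both genes EpiSC replicate 1 was well above replicate 2, as in Ddit3, and ESC was the other high group.

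Against rsEpiSC derived at E6.5, no member passed (limma, 3.89% of all genes called). At an unadjusted p under 0.05 were 7 of 32 members and 3146 of all 22180 genes. The members' median difference was 0.04, against -0.02 over all genes. The largest were Ddit3 at 2.04 ± 0.58 (adjusted p = 0.0805), Ppp1r15a at 1.72 ± 0.53 (0.112), Nupr1 at 1.66 ± 0.45 (0.0695) and Cebpb at 1.15 ± 0.34 (0.0908), with EpiSC above in each. Without EpiSC replicate 2, 3 members rose (Ddit3, Nupr1 and Ppp1r15a), and with array weights 5 did. Trib3 and Chac1 overlapped between the groups.

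The rsEpiSC lines of the 2 stages were then set against each other. No member passed between rsEpiSC E6.5 and rsEpiSC E5.75 (limma, 0.0857% of all genes called). The members' median difference was 0.40 against -0.01 over all genes. Above 0 were 27 of 32 members and 10896 of all 22180 genes. At an unadjusted p under 0.05 were 7 of 32 members and 1033 of all genes. Chac1 differed by 1.80 ± 0.59 (adjusted p = 0.66), Trib3 by 1.55 ± 0.45 (adjusted p = 0.507) and the threonyl-tRNA synthetase gene Tars by 0.74 ± 0.23 (adjusted p = 0.584). With array weights Trib3 and Tars passed. No member passed between epiblast E6.5 and epiblast E5.75 either (limma, 0.0225% of all genes called), where the median was 0.05 against -0.01 over all genes. At an unadjusted p under 0.05 were 2 of 32 members and 2819 of all 22180 genes. The difference between the rsEpiSC and the epiblast stage differences, tested as an interaction, passed for 0 members (limma, 0.00902% of all genes called). For it, 4 of 32 members and 1919 of all 22180 genes had an unadjusted p under 0.05.

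Against epiblast tissue the pattern was another one. In EpiSC 22 of 32 members rose relative to epiblast E5.75 and 0 fell, where 12.6% of all genes rose (19.3% of those with a mean log2 signal of at least 4; 24% called in either direction). Members that rose were 5 of 7 transcription factors, 6 of 7 effectors, 5 of 7 enzymes of amino acid and one-carbon synthesis, and 6 of 11 in the synthetase and tRNA export group. Their median difference was 1.32, against -0.19 over all genes. Relative to epiblast E6.5, 22 rose and 0 fell (limma; 11.2% of all genes rose, 17.1% of those with a mean log2 signal of at least 4; 20.7% called in either direction), with a median of 1.46 against -0.14. Both comparisons use the same EpiSC arrays.

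**Figure D3:**
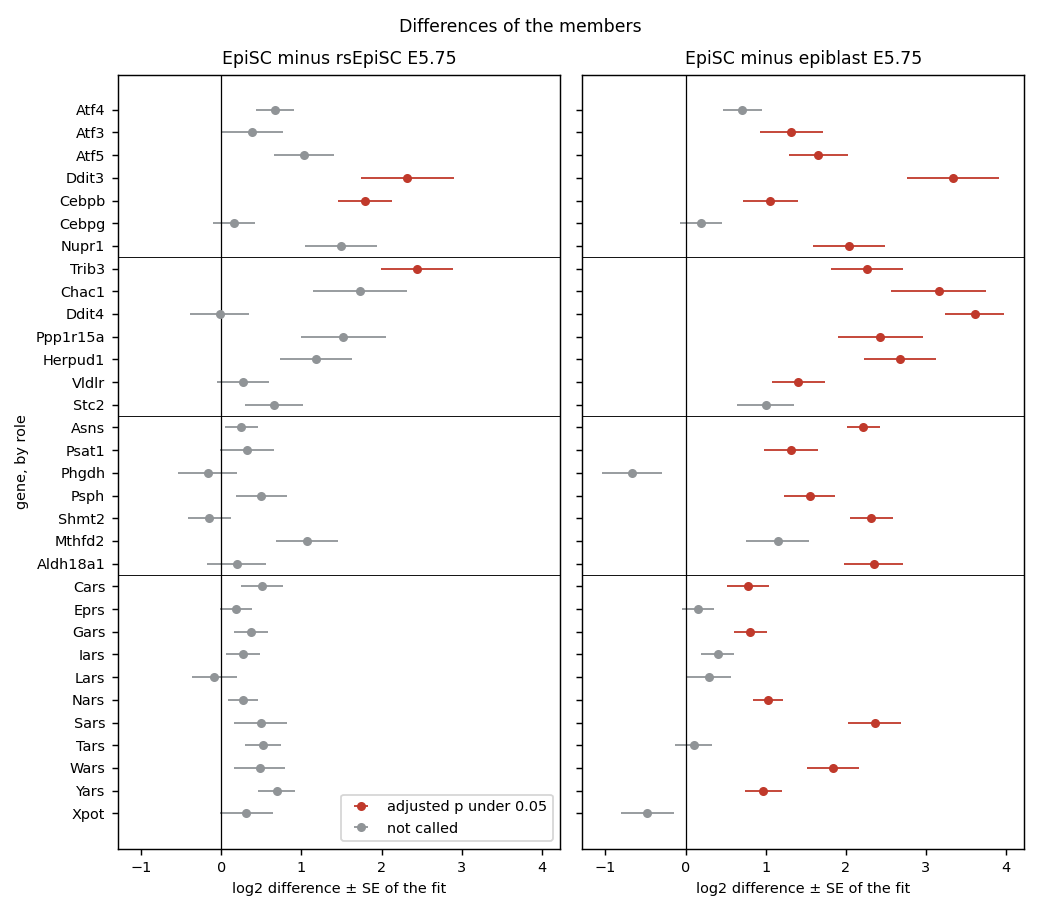
Log2 difference of each measured member with the standard error of the limma fit, for EpiSC minus rsEpiSC E5.75 (left) and EpiSC minus epiblast E5.75 (right); red marks an adjusted p under 0.05. On the left 3 genes are red, all above 0 and in the upper role groups; on the right 22 are red, all above 0, and they reach into the enzymes and synthetases.

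Ddit4 and Ddit3 had the largest differences from epiblast E5.75. Ddit4 encodes REDD1, an inhibitor of the growth kinase complex mTORC1 that also responds to hypoxia and glucocorticoids. It was at 7.81 and 8.09 in EpiSC, 8.18 and 8.24 in rsEpiSC E6.5, 8.16 and 7.77 in rsEpiSC E5.75, 6.93 and 6.99 in ESC, 3.75 and 5.06 in epiblast E6.5, and 4.25 and 4.43 in epiblast E5.75. The EpiSC arrays overlapped those of rsEpiSC E5.75, ESC was lower, and the tissue lowest. The difference between EpiSC and epiblast E5.75 was 3.61 ± 0.37 (SE; limma adjusted p = 8.71e-05). Ddit3 differed by 3.34 ± 0.58 (adjusted p = 0.00205) and by 2.22 without EpiSC replicate 1, where it still passed (adjusted p = 0.0124). The other effectors that rose were Chac1 (3.16 ± 0.59; adjusted p = 0.00327), Herpud1, part of the removal of misfolded proteins from the endoplasmic reticulum (2.68 ± 0.45), Ppp1r15a (2.43 ± 0.53), Trib3 (2.27 ± 0.45) and the lipoprotein receptor gene Vldlr (1.41 ± 0.33). Stc2, a secreted glycoprotein gene, did not pass (1.00 ± 0.36; adjusted p = 0.0617).

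Among the transcription factors, Nupr1 (2.04 ± 0.45), Atf5 (1.66 ± 0.37), Atf3 (1.32 ± 0.39) and Cebpb (1.06 ± 0.34) rose together with Ddit3 in EpiSC relative to epiblast E5.75. Atf5 is, like Atf4, controlled in part at translation, and Atf3 is a stress-induced bZIP factor. Atf4 mRNA was at the edge of the threshold (0.71 ± 0.24; limma adjusted p = 0.0501) and passed relative to epiblast E6.5 (1.30 ± 0.24; adjusted p = 0.00285). It also passed relative to epiblast E5.75 when arrays were centred on their median (0.76; adjusted p = 0.0347), and after quantile normalization its difference was 0.31 (adjusted p = 0.466). The ATF4 partner gene Cebpg passed in neither.

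Of the 7 measured biosynthesis genes, 4 (Asns, Psph, Shmt2 and Aldh18a1) had all cultured arrays above all tissue arrays, and Psat1, Phgdh and Mthfd2 overlapped. Asns, asparagine synthetase, had 10.26 and 10.28 in EpiSC, 10.41 and 10.14 in rsEpiSC E6.5, 9.90 and 10.14 in rsEpiSC E5.75, 10.87 and 10.81 in ESC, 7.79 and 8.20 in epiblast E6.5, and 7.91 and 8.19 in epiblast E5.75. All cultured arrays were above all tissue arrays, and ESC was the highest group. EpiSC exceeded epiblast E5.75 by 2.22 ± 0.21 (SE; limma adjusted p = 5.44e-05) and rsEpiSC E5.75 by 0.25 ± 0.21 (adjusted p = 0.761). Shmt2, the mitochondrial enzyme that moves a carbon unit off serine, is given by array although it was chosen after its values were seen. It was at 9.22 and 9.58 in EpiSC, 9.92 and 9.92 in rsEpiSC E6.5, 9.47 and 9.62 in rsEpiSC E5.75, 9.92 and 9.09 in ESC, 6.64 and 6.52 in epiblast E6.5, and 7.12 and 7.04 in epiblast E5.75. EpiSC minus epiblast E5.75 was 2.32 ± 0.27 (SE; limma adjusted p = 0.000177).

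Aldh18a1, the entry enzyme of proline synthesis, rose by 2.35 ± 0.37 in EpiSC relative to epiblast E5.75, and the serine pathway genes Psph and Psat1 by 1.55 ± 0.32 and 1.32 ± 0.34. Phgdh, which encodes the first enzyme of that serine pathway, did not go with them. It was at 7.06 and 7.59 in EpiSC, 7.95 and 7.23 in rsEpiSC E6.5, 7.40 and 7.58 in rsEpiSC E5.75, 7.10 and 8.17 in ESC, 7.66 and 7.70 in epiblast E6.5, and 8.18 and 7.81 in epiblast E5.75, values also picked after they were seen. Its difference was -0.67 ± 0.37 (limma adjusted p = 0.192). Mthfd2, the next mitochondrial one-carbon enzyme after Shmt2, was just outside the threshold (1.15 ± 0.39; adjusted p = 0.0508) and passed when arrays were centred (1.20; adjusted p = 0.0454).

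The synthetases, which attach amino acids to tRNAs, split. In EpiSC relative to epiblast E5.75 those for serine (Sars, 2.36 ± 0.33), tryptophan (Wars, 1.84 ± 0.32), asparagine (Nars, 1.03 ± 0.19), tyrosine (Yars, 0.97 ± 0.23), glycine (Gars, 0.81 ± 0.21) and cysteine (Cars, 0.78 ± 0.26) rose. Those for isoleucine (Iars), leucine (Lars), glutamate and proline (Eprs) and threonine (Tars) did not pass, with Iars at 0.40 ± 0.21 the largest, and neither did the tRNA exporter gene Xpot (-0.48 ± 0.33; adjusted p = 0.29). Sars, also picked after its values were seen, was at 10.67 and 10.58 in EpiSC, 10.49 and 10.11 in rsEpiSC E6.5, 10.08 and 10.18 in rsEpiSC E5.75, 10.36 and 10.11 in ESC, 8.31 and 8.40 in epiblast E6.5, and 7.60 and 8.91 in epiblast E5.75. Xpot, another choice made after its values were seen, ran from 7.28 to 8.14 on the 8 cultured arrays and from 7.75 to 8.42 on the 4 tissue arrays, so the 2 kinds of sample overlapped.

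The counts against tissue moved with the arrays used and with their scaling. Relative to epiblast E5.75, 14 members rose without EpiSC replicate 1, the lowest count with an array left out, and 17 after quantile normalization, which also evens out the narrower signal range of the tissue arrays. Relative to epiblast E6.5, 13 rose without epiblast E6.5 replicate 2, 14 without EpiSC replicate 1, and 17 after quantile normalization. None fell in these settings. Quantile normalization moved the median of all genes to -0.05 against epiblast E5.75 and to -0.03 against epiblast E6.5, and the members' medians to 0.97 and 1.16. Relative to epiblast E5.75, fibroblast markers rose in 6 of 16 and fell in 1, and trophoblast and extraembryonic ectoderm markers rose in 4 of 14 and fell in 1. Of all genes 12.6% rose and 11.4% fell. What part these markers had in the result was not tested. The fibroblast marker sum was 9.34 and 9.54 in rsEpiSC E6.5, and 8.78 and 8.68 in epiblast E6.5. Between these groups Asns differed by 2.28, Shmt2 by 3.34 and Ddit4 by 3.81, while Ddit3 and Cebpb did not pass. These members were picked with their values known, and the part of the markers in their differences was not tested either.

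The rsEpiSC lines were set against the tissue of their own stage. In rsEpiSC E6.5, 17 of 32 members rose relative to epiblast E6.5 and 0 fell (limma; 6.72% of all genes rose, 10.2% of those with a mean log2 signal of at least 4; 12.5% called in either direction), with a median of 0.93 against -0.10. Among them were 2 of 7 transcription factors (Atf4, 0.94 ± 0.24, and Atf5, 1.36 ± 0.37). The effectors were 4 of 7 (Ddit4 at 3.81 ± 0.37, Chac1 at 2.64 ± 0.59, Vldlr at 1.85 ± 0.33 and Trib3 at 1.50 ± 0.45). The rest were 5 of 7 enzymes and 6 of 11 in the synthetase and tRNA export group. Shmt2 differed by 3.34 ± 0.27, Psat1 by 2.35 ± 0.34, Asns by 2.28 ± 0.21 and Sars by 1.94 ± 0.33. Ddit3 (1.19 ± 0.58; adjusted p = 0.198) and Cebpb (-0.07 ± 0.34; adjusted p = 0.919) did not pass. The count was 9 after quantile normalization, 6 without rsEpiSC E6.5 replicate 1, 8 without epiblast E6.5 replicate 2, and 10 without either of the other two arrays.

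In rsEpiSC E5.75, 10 of 32 members rose relative to epiblast E5.75 and 0 fell (limma; 11.5% of all genes rose, 17.5% of those with a mean log2 signal of at least 4; 21.5% called in either direction), with a median of 0.59 against -0.16. No transcription factor of the set was among them. Ddit4 (3.62 ± 0.37), Shmt2 (2.47 ± 0.27), Aldh18a1 (2.16 ± 0.37), Asns (1.97 ± 0.21), Sars (1.87 ± 0.33), Herpud1 (1.50 ± 0.45), Wars (1.36 ± 0.32), Vldlr (1.14 ± 0.33), Psph (1.05 ± 0.32) and Nars (0.76 ± 0.19) rose. Ddit3 was at 1.02 ± 0.58 (adjusted p = 0.221) and Chac1 at 1.43 ± 0.59 (adjusted p = 0.105). After quantile normalization 6 rose and 2 fell, Cebpb and Xpot, with the median of all genes at -0.03 and that of the members at 0.36. Without rsEpiSC E5.75 replicate 2, 5 rose, and without epiblast E5.75 replicate 1, 6 did. This comparison and the one between EpiSC and epiblast E5.75 share the tissue arrays.

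Between EpiSC and ESC, 1 member rose, Vldlr (1.53 ± 0.33; adjusted p = 0.0159), and 1 fell, Nupr1 (-2.31 ± 0.45; adjusted p = 0.0086), in limma, where 3.60% of all genes rose and 2.70% fell. The median difference was 0.31 against 0.00 over all genes. Ddit3, Ppp1r15a and Atf4 overlapped between these lines. Vldlr, given by array after its values were seen, was at 6.62 and 5.76 in EpiSC and 4.80 and 4.51 in ESC. Without EpiSC replicate 1 Vldlr no longer passed (1.11; adjusted p = 0.153), nor did it without ESC replicate 2 (1.39; adjusted p = 0.0906), and without EpiSC replicate 2 Nupr1 did not (-1.51; adjusted p = 0.0659). Without ESC replicate 1 the count was 5, with Chac1, Psat1 and Stc2 higher in EpiSC as well.

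Genes around the set were read from lists of the same pathway. Of 21 other measured ATF4 targets, mostly amino acid transporters and enzymes, 16 rose in EpiSC relative to epiblast E5.75 and 0 fell, where 12.6% of all genes rose and 19.3% of those with a mean log2 signal of at least 4 (median 1.56, against -0.19 over all genes). They included Jdp2, a bZIP repressor gene (3.80 ± 0.35), Sesn2, a leucine-sensing inhibitor of mTORC1 (2.89 ± 0.54), and Slc7a5, a transporter of large neutral amino acids (2.69 ± 0.26), while Pck2 (1.05 ± 0.43; limma adjusted p = 0.0933) and the arginine transporter gene Slc7a3 (1.01 ± 0.59; 0.221) did not pass. Relative to rsEpiSC E5.75, Jdp2 (2.73 ± 0.35; adjusted p = 0.000913) and Cth, an enzyme of cysteine synthesis (3.04 ± 0.62; adjusted p = 0.0163), rose, and Slc7a3 (1.94 ± 0.59; 0.109) and Slc1a5 (1.45 ± 0.66; 0.357) did not pass. Cth, given by array after its values were seen, was at 9.75 and 9.55 in EpiSC against 5.36 and 7.86 in rsEpiSC E5.75. It did not pass without rsEpiSC E5.75 replicate 1 (1.79; adjusted p = 0.0941), without EpiSC replicate 1 (2.94; adjusted p = 0.113) or without EpiSC replicate 2 (3.14; adjusted p = 0.0636). The count of 16 was 9 without epiblast E5.75 replicate 1 and 10 without either EpiSC array.

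Other synthetases were read the same way. Of 9 measured other cytosolic synthetases and scaffold genes, 2 rose relative to epiblast E5.75, Qars and Vars (0.97 ± 0.32 and 0.97 ± 0.30; median of the list 0.19), a share near the 19.3% of all genes with a mean log2 signal of at least 4. None rose with only the 4 arrays compared, with array weights, without EpiSC replicate 1, without EpiSC replicate 2 or without epiblast E5.75 replicate 1, and after quantile normalization 0 rose and 1 fell. Farsa (0.55 ± 0.31) and Farsb (0.36 ± 0.27) did not pass. Of all genes, 12.6% rose and 11.4% fell in this comparison, 24% in either direction. In the mitochondrial and eIF2 lists that follow, the share called was below that 24%. Of 16 mitochondrial synthetases 1 rose, Fars2 (0.95 ± 0.27), and 2 fell, Yars2 (-1.33 ± 0.27) and Ears2 (-1.10 ± 0.33), with a median of 0.03; none passed without EpiSC replicate 1 or with only the 4 arrays compared, and 1, which fell, passed without EpiSC replicate 2. Among 11 genes for the eIF2 kinases, eIF2 and its exchange factor eIF2B, Eif2b2 rose (2.96 ± 0.52; adjusted p = 0.00227), and its epiblast E5.75 arrays, looked up after its difference was seen, were at 4.20 and 6.23. The haem-sensing kinase gene Eif2ak1 (-1.06 ± 0.39; adjusted p = 0.0683) and the RNA-sensing one, Eif2ak2 (0.71 ± 0.33; adjusted p = 0.131), did not pass. Without EpiSC replicate 2, 1 gene of this list rose and 1 fell, without epiblast E5.75 replicate 2, 2 rose, and after quantile normalization 1 rose and 2 fell.

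The ATF6 and XBP1 branch handles unfolded protein in the endoplasmic reticulum apart from eIF2. Of its 21 measured genes, 7 rose in EpiSC relative to epiblast E5.75 and 0 fell, where 12.6% of all genes rose and 19.3% of those with a mean log2 signal of at least 4 (median 0.61). They included the chaperone genes Hyou1 (1.51 ± 0.36) and Pdia6 (1.49 ± 0.18) and the degradation factor gene Sel1l (1.48 ± 0.35). Ern1 (0.90 ± 0.34; limma adjusted p = 0.07) and Edem1 (0.75 ± 0.36; 0.143) did not pass. The count was 4 without EpiSC replicate 1 or without epiblast E5.75 replicate 1, and 2 with only the 4 arrays compared, and after quantile normalization 5 rose and 1 fell. Relative to rsEpiSC E5.75 none of the 21 passed in limma, and Derl3 was largest at 1.23 ± 0.42 (adjusted p = 0.169). At an unadjusted p under 0.05 were 6 of the 21 and 3036 of all 22180 genes.

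**Figure D4:**
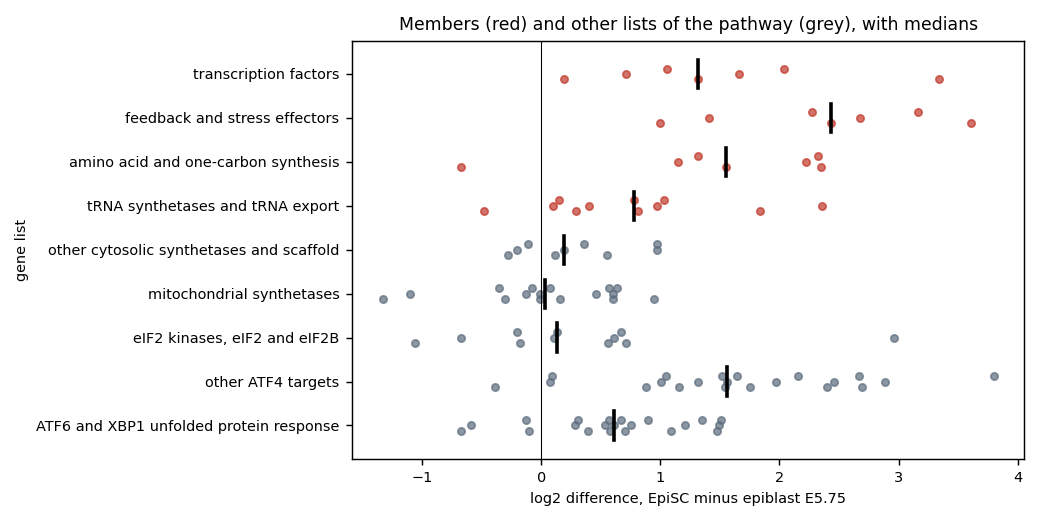
Log2 difference between EpiSC and epiblast E5.75 for each measured gene (points) of the 4 role groups of the set (red) and 5 other lists (grey), with list medians (black bars). The role groups have medians of 1.32, 2.43, 1.55 and 0.78 from top to bottom. The other ATF4 targets have 1.56 and the ATF6 and XBP1 list 0.61, while both other synthetase lists and the eIF2 list lie around 0.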

How the data were processed

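The deposited table holds log2 signal of 41345 probe sets on 12 arrays (0.332 to 13.594), which the authors made with RMA in oligo, per the submitters' processing notes. Versions and settings of that step are not given in these sources. The label protocol names a human array, but the identifiers match a mouse probe set table: 23521 probe sets carried 1 symbol, 1814 several and 16010 none, and 99.18% of the identifiers of the first kind were in RefSeq GRCm38.p6. For the 1082 genes with several probe sets the one with the highest mean was kept, leaving 22180 genes; every measured member had 1. Levels were compared between groups, never between probe sets.

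Differences were fitted with limma 3.58.1 in R 4.3.3 (lmFit on 6 group means, eBayes with a trend; 6 residual and 5.99 prior degrees of freedom), adjusted by Benjamini and Hochberg over all genes, with a threshold of 0.05, and the fit was tested on simulated data. With 2 arrays a group, their number limits the precision. The members, lists and the interaction were chosen with earlier results of these data known. By rule, values on each array were given for Atf4, Ddit3, Trib3, Chac1 and Asns, for up to 3 called members per role group with the largest difference between EpiSC and rsEpiSC E5.75, and for the 2 members farthest from epiblast E5.75; from other lists up to 3 called and 2 uncalled genes were named. Genes given beyond this rule are said to be, apart from the naive marker Klf4. Alternatives were the replicate number as a block, quantile normalization, arrays centred on their median, only genes with a mean of at least 4, only the 4 arrays compared, the mean of a gene's probe sets, array weights, and each array left out. Promoter sequences came from RefSeq.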

Additional observations from a re-analysis of the deposited data

How the results depend on the processing

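No called member changed sign in any of 11 alternatives per comparison. Besides the values given above, counts of members called moved by over 1.5 times as follows. Between EpiSC and rsEpiSC E5.75 (3 called) the range with 1 array left out was 0 to 6. Between EpiSC and rsEpiSC E6.5 (0 called) it was 0 to 3, with 1 call under the replicate block and 5 with array weights. For EpiSC it was 14 to 19 against epiblast E5.75 (22 called), 13 to 18 against epiblast E6.5 (22 called) and 1 to 5 against ESC (2 called), the last with 0 when only the 4 arrays were fitted. For rsEpiSC it was 5 to 9 against epiblast E5.75 (10 called), and 6 to 10 against epiblast E6.5 (17 called), with 9 after quantile normalization. Array weights gave 2 calls between rsEpiSC E6.5 and rsEpiSC E5.75 (0 called). The cause of these moves was not tested, beyond the fewer arrays when 1 is left out or 4 are fitted. Ddit3 between EpiSC and rsEpiSC E5.75 also did not pass with the replicate block (adjusted p = 0.0672), quantile normalization (0.0663) or only the 4 arrays (0.113), and its adjusted p ran from 0.00312 to 0.361 over the alternatives. Farsb against epiblast E5.75, not called, ranged from -0.02 to 0.75 with 1 array left out. After quantile normalization 1 of the other cytosolic synthetases fell and none rose against epiblast E5.75.

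The replicate numbers share only a number: deviations of same-numbered arrays correlated between -0.26 (ESC and EpiSC) and 0.058, and nothing in the labels pairs them. With the replicate block 2 members passed between EpiSC and rsEpiSC E5.75, 21 and 22 between EpiSC and epiblast E5.75 and E6.5, 2 between EpiSC and ESC, and 9 and 15 between rsEpiSC E5.75 and E6.5 and their tissue.

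Over all genes the calls were 858 between EpiSC and rsEpiSC E5.75 (318 to 1567 over the alternatives), 863 against rsEpiSC E6.5 (242 to 1911), 5321 against epiblast E5.75 (2316 to 6100), 4585 against epiblast E6.5 (2183 to 4542) and 1396 against ESC (558 to 1462). They were 4768 (1627 to 5504) and 2772 (553 to 3863) for rsEpiSC E5.75 and E6.5 against their tissue, 19 (3 to 257) between the rsEpiSC stages, 5 (0 to 155) between the epiblast stages and 2 (1 to 4) for the interaction, which was added after seeing the data.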
